A study of Mus musculus with 2 samples.

Results

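The effector CD8 T cell barcodes described here were 260 of 18252 deposited single-cell barcodes: 155 of 7688 in library 1 and 105 of 10564 in library 2. They were chosen by transcript counts. Each had at least 500 unique molecular identifiers (UMIs, 1 per captured transcript), at most 10% of them from mitochondrial genes, under 0.4% from 4 melanoma genes (Pmel, Mlana, Dct, Tyrp1) and at most 1 from the macrophage genes C1qa, C1qb and C1qc. Each also had at least 1 UMI of Cd3d, Cd3e or Cd3g, at least 1 of Cd8a or Cd8b1, none of Cd4, and at least 2 over the 6 cytotoxic genes Gzmb, Gzmc, Gzmd, Gzmf, Gzmk and Prf1. They made up 43.2% (exact 95% interval 38.0 to 48.5) of the 359 CD8 T barcodes of library 1 and 41.3% (35.2 to 47.7) of the 254 of library 2. They were set against the CD8 T barcodes with 0 UMIs of the 6 genes, called granzyme-zero, of which there were 154 and 102. The remaining 50 and 47 CD8 T barcodes held a single such UMI. All values below come in pairs, library 1 before library 2.

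The CD45+ (leukocyte) cells were sorted from B16F10 melanoma, a mouse tumour line, 2 weeks after injection into mice whose myeloid cells lacked Rel (Myeloid Rel KO, LysM-cre x RelloxP/loxP) or into WT mice (LysM-cre x Rel+/+). Both groups carry LysM-cre, which acts in myeloid cells, so the T cells are not the targeted cells. Each genotype gave 1 library from 5 pooled tumours, so there are no replicates, and the series' purpose concerns c-Rel in myeloid cells rather than T cells. No source used here ties the 2 library numbers on the barcodes to a genotype, so no genotype comparison is made and a difference between the libraries cannot be told apart from genotype, pool or handling.

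Cytotoxic CD8 T cells kill by releasing granules that hold perforin, which opens the target's membrane, and granzymes, serine proteases that enter through it and cut proteins of the cell death machinery. They also secrete interferon gamma and chemokines. In mice granzyme B lies in a gene cluster with granzymes C to G and N, while granzymes A and K form a second locus. In tumours such cells often carry inhibitory receptors such as PD-1.

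The rule itself asked for Cd3 and Cd8 transcripts and capped melanoma and C1q genes, so these are no check of the label. Trac, which it did not use, was at 421 and 424 counts per 1000000 UMIs of the class (CPM) in effector barcodes, against 17.5 and 29.1 CPM in barcodes chosen for NK receptor genes (NK-marker barcodes). All 10 T cell markers (the 3 Cd3 chains of the rule, Trac, Trbc1, Trbc2, Lck, Lat and others) were seen in effector barcodes of both libraries, summing to 5672 and 5214 CPM, beside 6912 and 6498 CPM in granzyme-zero barcodes. The NK list summed to 173 and 284 CPM, with the receptor gene Klra4 at 0 UMIs in both libraries and Klre1 at 12 and 2. The gamma delta T list had 5 and 2 UMIs in effector barcodes, none of them of the chain gene Trdc. The CD4 and regulatory T list summed to 224 and 231 CPM, beside 215 and 248 CPM in granzyme-zero barcodes. At least 2 of its UMIs were held by 38 of 155 and 16 of 105 effector barcodes, and by 13 of 154 and 9 of 102 granzyme-zero ones. The B cell list summed to 22.1 and 13.4 CPM, and the monocyte and macrophage list to 202 and 334 CPM, beside 240 and 443 CPM in granzyme-zero barcodes. Melanoma genes, which the sorted cells should not express, stood at 353 and 969 CPM in effector barcodes, close to the 384 and 1014 CPM of granzyme-zero barcodes. The neutrophil list was uneven, at 175 and 665 CPM in effector against 37.9 and 22.5 CPM in granzyme-zero barcodes, and 1 of 155 and 6 of 105 effector barcodes held at least 2 of its UMIs. Results without such barcodes are given with the genes concerned.

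Effector barcodes were deeper than those they are compared with, which the rule favours, since a deep barcode reaches 2 UMIs more easily. Their median was 3012 and 2280 UMIs, against 1161 and 997 in granzyme-zero barcodes. They held in all 634875 and 299189 UMIs, against 237252 and 133117. A count of 3 UMIs in a whole class, the limit that a count of 0 allows, was 4.73 and 10.0 CPM in effector and 12.6 and 22.5 CPM in granzyme-zero barcodes. Of the barcode sequences, 3609 occurred in both libraries, 12 and 1 of them at effector barcodes, and no effector or granzyme-zero barcode was a faint copy of one with over 10 times its UMIs in the other library. All intervals cover counting error only, and fewer transcripts per cell cannot be told apart from fewer captured.

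Granzyme B and perforin were the common transcripts, and granzymes C, D and F were each seen in a minority. Gzmb encodes the granzyme that sets off cell death in the target. It was seen in 64.5% (56.4 to 72.0) and 80.0% (71.1 to 87.2) of effector barcodes, at 504 and 902 CPM. Prf1, which encodes perforin, was seen in 81.3% and 58.1%, at 770 and 578 CPM. Both were carried together by 77 and 48 barcodes, and Gzmb or Prf1 were the only rule genes in 65 (41.9%) and 35 (33.3%). These values chose the barcodes and are a description. In C1q-high barcodes, macrophage-type ones that should lack granzymes and had medians of 3383 and 2513 UMIs, Gzmb was seen in 0.398% and 0.307% and none of the 6 genes in over 0.994%. The rule required 2 UMIs of these genes in each effector barcode, so their shares are high by choice and the part of free RNA in them was not tested.

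Gzmk encodes a granzyme with a different cutting preference that is often found in less differentiated cells. It was in 39.4% (31.6 to 47.5) and 17.1% (10.5 to 25.7) of effector barcodes, at 165 and 73.5 CPM, and never above 6 UMIs in a barcode. Gzmc was in 16.1% and 38.1%, at 328 and 1755 CPM. Gzmf was in 13.5% (8.59 to 20.0) and 39.0% (29.7 to 49.1), at 496 and 3824 CPM, and Gzmd in 5.16% and 19.0%, at 99.2 and 1233 CPM. The granzymes of the Gzmc to Gzmf group were thus more frequent in library 2 and Gzmk and Prf1 in library 1. When every barcode was thinned to 1000 UMIs, the shares for Gzmf were 10.1% and 33.0% and those for Gzmk 21.5% and 10.0%, in the same order between the libraries.

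**Figure D1:**
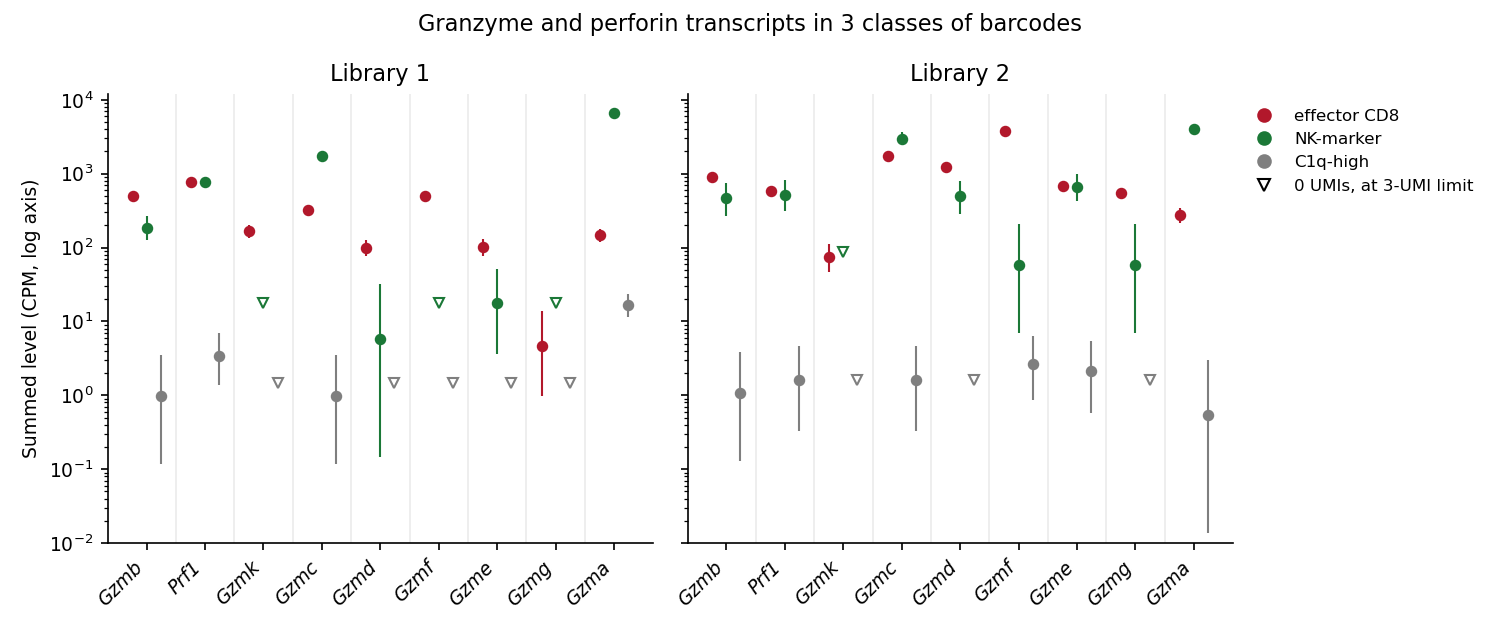
Summed level of each granzyme and perforin gene in effector CD8, NK-marker and C1q-high barcodes, in CPM on a log axis, 1 panel per library. Bars are exact 95% Poisson intervals and open triangles mark 0 UMIs at the 3-UMI limit. Gzmf was at 496 and 3824 CPM in effector barcodes and Gzma at 6639 and 4009 CPM in NK-marker barcodes.

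The granzyme RNA was unevenly spread over the barcodes. The median effector barcode had 4 rule-gene UMIs in both libraries, and the highest 162 and 282. At most 3.56% and 7.15% of a barcode's UMIs were of the 6 genes. In library 1, 10 barcodes with at least 30 such UMIs held 44.1% of all of them, and in library 2, 16 barcodes held 79.0%. Of these, 9 of 10 and 16 of 16 carried Gzmc, Gzmd or Gzmf. The 3 highest barcodes held 188 of 315 and 420 of 1144 Gzmf UMIs, and 55 of 63 and 174 of 369 Gzmd UMIs. Gzmb was spread more evenly, its 3 highest barcodes holding 52 of 320 and 45 of 270. In library 1 a summed level of Gzmf or Gzmd is therefore largely that of a handful of barcodes, while that of Gzmb is not. In library 2 Gzmf was seen in 41 barcodes, at a median of 10 UMIs where seen, and Gzmd in 20, at 11.5.

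**Figure D2:**
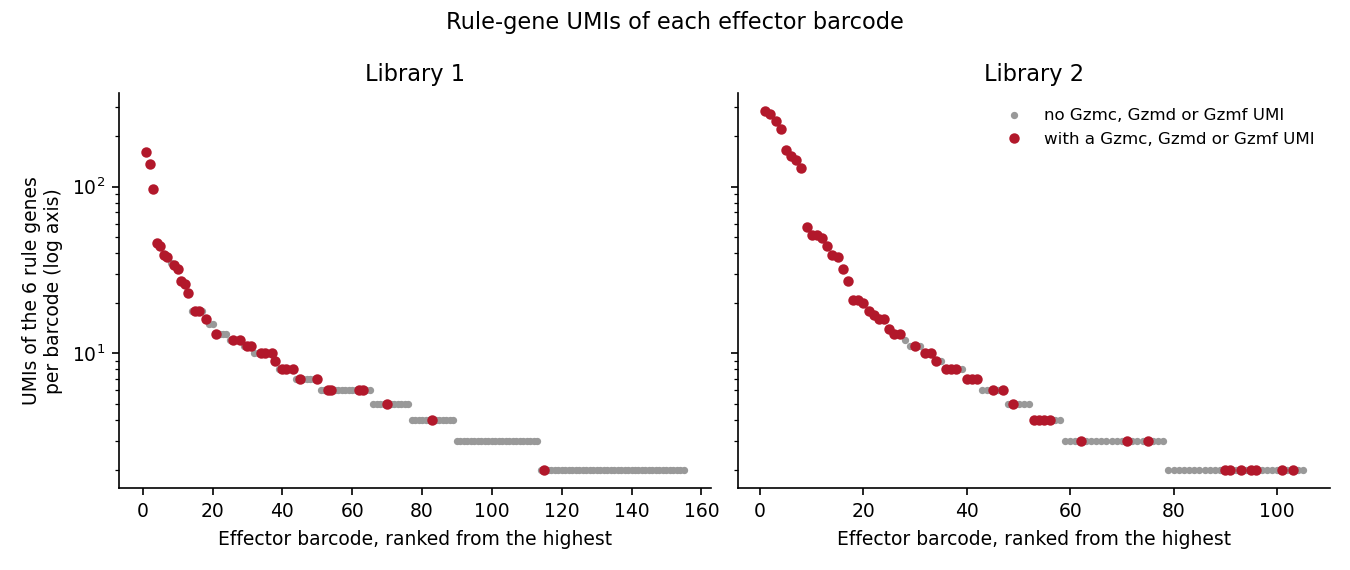
UMIs of the 6 rule genes in each effector barcode on a log axis, ranked from the highest, 1 panel per library, with barcodes that carried Gzmc, Gzmd or Gzmf in red. The red points fill the top of both curves, which start at 162 and 282 UMIs and end at the rule's 2 UMIs.

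The granzymes appeared in 2 groupings that seldom met. Any of Gzmc, Gzmd and Gzmf was in 36 (23.2%) and 54 (51.4%) effector barcodes, Gzmk in 61 and 18, and both in 7 and 2. In barcodes with Gzmc, Gzmd or Gzmf, Gzmk was seen in 19.4% (8.19 to 36.0) and 3.70% (0.452 to 12.7), against 45.4% (36.2 to 54.8) and 31.4% (19.1 to 45.9) in those without. Their medians were 4365 and 2547 UMIs with, against 2794 and 1954 without, so the barcodes poorer in Gzmk were the deeper ones. Since a barcode entered through any 2 UMIs, the rule itself lowers such overlaps, and no test is attached to them. Gzmb was found on both sides, in 80.6% and 74.1% of barcodes with Gzmc, Gzmd or Gzmf, against 59.7% and 86.3% of those without. No barcode carried all 6 genes. Gzmd was in company in 6 of 8 and 20 of 20 barcodes, where Gzmc or Gzmf was also present.

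Gzme and Gzmg, which are outside the rule, mostly appeared with Gzmc, Gzmd or Gzmf. Gzme was seen in 9 and 23 effector barcodes, at 101 and 672 CPM, and 6 and 22 of these also held Gzmc, Gzmd or Gzmf. It had 0 UMIs in granzyme-zero barcodes, so it was at least 7.97 and 29.8 times higher in effector barcodes. Gzmg had 3 and 166 UMIs, 94 of those in library 2 in 1 barcode, and each of the 1 and 10 barcodes with it carried Gzmc, Gzmd or Gzmf. Gzma, the granzyme most typical of NK cells, behaved differently, at 148 and 274 CPM in effector against 240 and 90.2 CPM in granzyme-zero barcodes, with opposite directions in the libraries. In library 2, 51 of its 82 UMIs in effector barcodes were in 1 barcode. It shared a barcode with Gzmc, Gzmd or Gzmf in 0 of 20 and 4 of 8 cases. Gzmm had 1 and 0 UMIs and Gzmn 0 and 1.

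Gzmb, Gzmc, Gzmf, Gzmn, Gzmg, Gzmd and Gzme lie side by side on the minus strand of chromosome 14 (GRCm38, chr14:56117626-56262260, 145 kb), and they are the only 7 protein-coding genes annotated there by GENCODE. Gzmb is at chr14:56258838-56262260, Gzmc at chr14:56231441-56234656, Gzmf at chr14:56205263-56211417 and Gzmd at chr14:56129556-56132608. Gzmk (chr13:113171608-113225908, minus strand) and Gzma (chr13:113093825-113100981, minus strand) are on chromosome 13 and Prf1 (chr10:61297833-61304680, plus strand) on chromosome 10. The near-identical members share transcript sequence near the 3′ end, where this assay reads. Of the 50-base words in the last 500 bases, 20.6% in Gzmd, 18.2% in Gzme, 14.4% in Gzmg, 12.0% in Gzmn and 7.10% in Gzmf also occurred in another listed gene, and none in Gzmb, Gzmc, Gzmk, Gzma or Prf1. How reads were assigned between Gzmd, Gzme, Gzmf, Gzmg and Gzmn is therefore uncertain, while their sum is less so.

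The promoters of Gzmc, Gzmd, Gzme, Gzmf and Gzmg were alike in sequence, while that of Gzmb, often seen with Gzmc, Gzmd or Gzmf, was not. Whether promoter sequence bears on which granzymes appeared together was not tested. From 250 bases before to 50 after the start, the window of Gzmd was 93.4% identical to that of Gzme and 83.4% to that of Gzmc, and the window of Gzmf 84.8% to that of Gzmg and 74.6% to that of Gzmc. Gzmb was 49.2% identical to Gzmc and 51.7% to Gzmf, close to the 48.2% between Gzmk and Prf1. The windows of Gzmb (chr14:56262285-56262584), Gzmc (chr14:56234608-56234907), Gzmf (chr14:56211358-56211657) and Gzmd (chr14:56132544-56132843) are shown to make this visible, 5′ to 3′ on the minus strand, from RefSeq on GRCm38.p6. Capitals mark matches on either strand to TGANTCA (the AP-1 element), TGACGTCA (the cyclic AMP response element) and TGTGGT (the RUNX core), which do not overlap here.
Gzmb: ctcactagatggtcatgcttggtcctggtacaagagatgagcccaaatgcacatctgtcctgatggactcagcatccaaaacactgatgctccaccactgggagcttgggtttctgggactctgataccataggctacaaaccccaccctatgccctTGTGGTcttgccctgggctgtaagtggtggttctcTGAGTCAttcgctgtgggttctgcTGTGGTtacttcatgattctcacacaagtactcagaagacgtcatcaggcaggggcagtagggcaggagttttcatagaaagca
Gzmc: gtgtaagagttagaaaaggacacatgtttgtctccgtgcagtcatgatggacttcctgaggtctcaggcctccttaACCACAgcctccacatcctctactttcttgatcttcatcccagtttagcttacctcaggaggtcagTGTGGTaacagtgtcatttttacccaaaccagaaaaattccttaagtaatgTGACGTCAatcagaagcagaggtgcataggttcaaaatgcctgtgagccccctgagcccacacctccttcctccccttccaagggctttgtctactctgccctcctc
Gzmf: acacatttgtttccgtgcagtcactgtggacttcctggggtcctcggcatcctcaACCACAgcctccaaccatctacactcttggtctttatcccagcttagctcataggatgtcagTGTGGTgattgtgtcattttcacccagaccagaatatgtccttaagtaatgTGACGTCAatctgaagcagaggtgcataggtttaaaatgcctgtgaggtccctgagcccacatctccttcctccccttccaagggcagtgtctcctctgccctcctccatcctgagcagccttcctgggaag
Gzmd: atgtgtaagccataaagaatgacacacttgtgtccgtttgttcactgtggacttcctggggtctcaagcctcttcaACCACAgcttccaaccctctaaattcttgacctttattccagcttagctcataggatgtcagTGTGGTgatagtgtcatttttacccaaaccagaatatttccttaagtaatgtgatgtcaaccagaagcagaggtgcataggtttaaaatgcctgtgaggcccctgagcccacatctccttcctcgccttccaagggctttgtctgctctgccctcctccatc

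The letters TGACGTCA were in the windows of Gzmc, Gzmf and Gzmg and in 1.79% of 32851 mouse promoter windows of the same length. They were not in those of Gzmb, Gzmd, Gzme, Gzmn, Gzmk, Gzma or Prf1. TGANTCA was in Gzmb alone of these 10 genes and in 7.81% of all windows. TGTGGT was in 8 of the 10, all but Gzmn and Gzmk, and in 16.8% of all windows. The T-box letters AGGTGTGA, in 1.28% of all windows, were in none. These are matches of letters and not measured sites.

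Outside the rule, effector barcodes had higher levels of Ifng, Ccl3, Ccl4, Tnfrsf9 and Irf8 and lower levels of Il7r and Klf2 in both libraries. A gene was tested where each library held 20 or more of its UMIs in the compared classes. Among 2795 such genes, 78 (2.79%) were at least 2 times higher and 39 (1.4%) at least 2 times lower in effector than in granzyme-zero barcodes in both libraries. The 78 include the 6 rule genes. The median log2 ratio of all 2795 was 0.20 and 0.05. Because depth differed, every ratio was also taken with granzyme-zero barcodes weighted to the effector barcodes' depths, which gave 91 higher genes, 36 of them among the 78, and 22 lower ones, 6 of them among the 39. That weighting leans on few deep granzyme-zero barcodes, worth 37.0 and 24.5 equally weighted ones.

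Of 7 tested cytokine and chemokine genes, 3 were higher and none lower, and the list's median log2 ratio was 1.70 and -0.33. Its summed level, of which Ccl5 is the largest part, was lower, at 5825 and 5217 CPM in effector against 8122 and 7324 CPM in granzyme-zero barcodes. Ifng encodes interferon gamma, the main signal by which T cells activate macrophages. It was at 164 and 592 CPM in effector barcodes, against 50.6 and 30.05 CPM in granzyme-zero barcodes, ratios of 3.24 (1.78 to 6.47) and 19.7 (7.56 to 73.1). It was seen in 20.6% and 16.2% of effector barcodes, against 5.19% and 2.94%, with 0% and 0.307% in C1q-high barcodes. After thinning it was seen in 9.40% and 9% of effector against 2.02% and 4% of granzyme-zero barcodes, with overlapping intervals in both libraries. In library 2, 140 of its 177 UMIs came from 3 barcodes. Ccl3 and Ccl4 encode inflammatory chemokines that draw leukocytes. Ccl3 was at 399 and 431 CPM against 54.8 and 52.6 CPM in granzyme-zero barcodes, and Ccl4 at 506 and 481 CPM against 198 and 150 CPM. After thinning Ccl3 was seen in 14.8% and 9% of effector against 3.03% and 4% of granzyme-zero barcodes. For Ccl4 the thinned shares were 12.8% and 14% against 11.1% and 6%. With depths weighted, Ifng was 5.54 and 16.0 times higher, Ccl3 3.34 and 7.40 times, and Ccl4 1.92 and 6.72 times. Ccl4 was also at 1136 and 719 CPM in C1q-high barcodes and Ccl3 at 480.03 and 242 CPM, so the share of free macrophage RNA in these levels was not tested.

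Ccl5, another inflammatory chemokine gene and the most abundant of those named, ran the other way. It was at 4109 and 3225 CPM in effector barcodes, against 7427 and 6168 CPM in granzyme-zero barcodes, ratios of 0.553 and 0.523 that miss the limit of 0.5. Xcl1, which draws dendritic cells that cross-present antigen, was at 225 and 127 CPM against 54.8 and 210 CPM, with opposite directions. Ccl1 did the same, at 129 and 124 CPM against 8.43 and 473 CPM, and 56 of the 63 UMIs behind the last value were in 1 barcode. Tnf and Il2 had at most 5 UMIs in either class.

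Among 9 tested costimulatory receptor genes, Tnfrsf9 was higher and none lower. It encodes 4-1BB, which T cells display after activation. It was at 417 and 334 CPM in effector barcodes, against 118 and 113 CPM in granzyme-zero barcodes, ratios of 3.54 (2.39 to 5.43) and 2.97 (1.71 to 5.50), and 3.53 and 2.31 with depths weighted. After thinning it was still seen in 28.2% and 25% of effector barcodes, against 8.08% and 8% of granzyme-zero ones and 0.619% and 0.489% of C1q-high ones. Tnfrsf4, which encodes OX40, was at 504 and 418 CPM against 270 and 240 CPM, short of 2 times. Icos was at 176 and 184 CPM against 358 and 331 CPM, but its log2 ratio over both libraries of -0.93 turned to 0.68 with depths weighted, and the list's median likewise from -0.46 to 0.29.

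Few checkpoint genes differed by the 2-fold limit. Of 6 tested, none was higher and 1, Cd160, was lower, at 69.3 and 60.2 CPM in effector against 160 and 128 CPM in granzyme-zero barcodes. Its ratios of 0.460 and 0.988 with depths weighted no longer passed. Pdcd1, the gene of PD-1, stood at 350 and 244 CPM against 282 and 293 CPM, ratios of 1.24 (0.938 to 1.65) and 0.833 (0.557 to 1.26). Lag3 was at 173 and 110 CPM against 42.1 and 143 CPM, with opposite directions, and Havcr2, which encodes TIM-3, at 143 and 127 CPM against 54.8 and 90.2 CPM. Tox, which encodes a factor of the exhausted state, was at 140 and 90.2 CPM against 92.7 and 143 CPM. PD-1 RNA was thus seen both in CD8 T barcodes with at least 2 UMIs of the 6 rule genes and in those with 0.

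**Figure D3:**
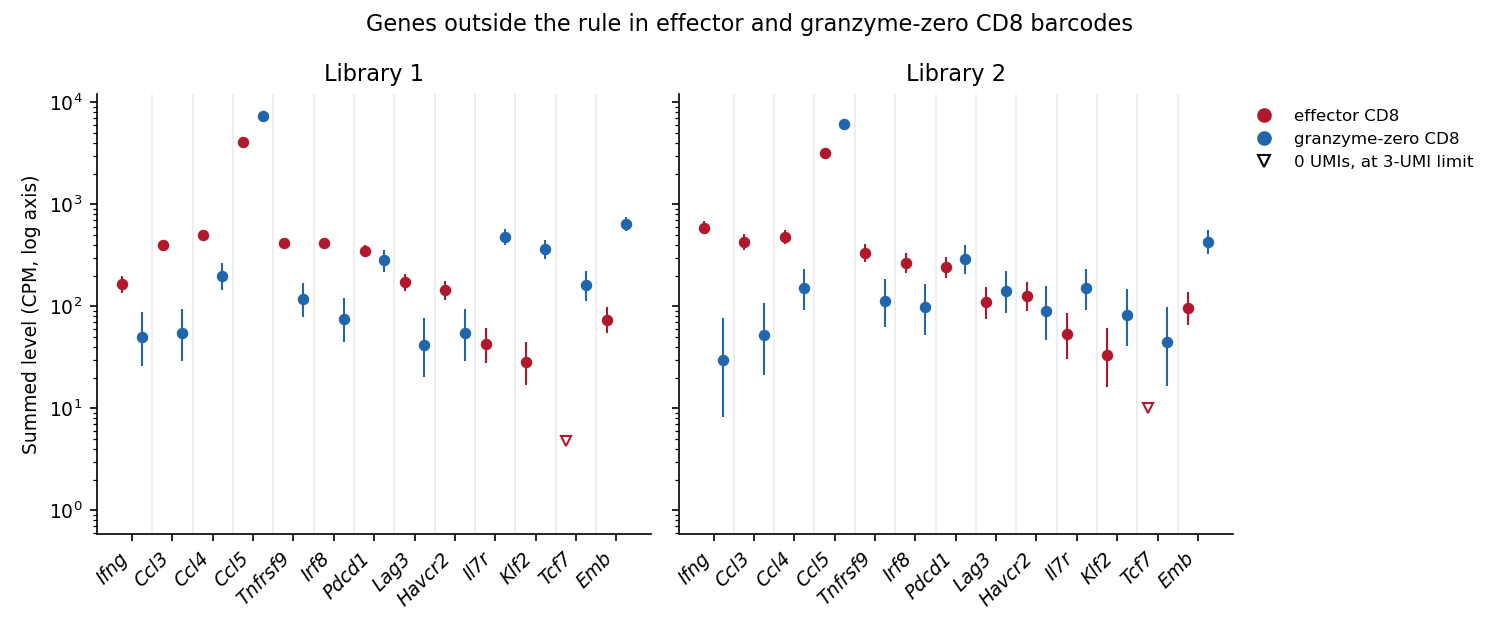
Summed level of 13 genes outside the rule in effector and granzyme-zero CD8 barcodes, in CPM on a log axis with exact 95% Poisson intervals, 1 panel per library. Ifng, Ccl3, Ccl4, Tnfrsf9 and Irf8 were higher and Il7r, Klf2 and Emb lower in effector barcodes in both panels, and Tcf7 had 0 UMIs in effector barcodes.

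Genes of naive and memory cells were lower in effector barcodes as counted, more so in library 1. Of 5 tested, none was higher and 2, Il7r and Klf2, were lower. Il7r encodes the receptor for the survival cytokine IL-7, and it was at 42.5 and 53.5 CPM in effector barcodes, against 481 and 150 CPM in granzyme-zero barcodes. Klf2, a factor that keeps T cells circulating, was at 28.4 and 33.4 CPM against 362 and 82.6 CPM. With depths weighted Il7r was at 0.267 and 0.608 times and Klf2 at 0.241 and 1.57 times, so neither passed and Klf2 changed direction in library 2. The list's median log2 ratio of -1.69 moved to -0.70. Foxp1 and Ly6c2, a quiescence factor and a marker of memory cells, were at 28.4 and 40.1, and 168 and 154 CPM against 198 and 60.1, and 599 and 278 CPM, and missed the limit in library 2.

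Tcf7, which encodes TCF-1, the factor of stem-like and memory T cells, had 0 UMIs in the 260 effector barcodes. In granzyme-zero barcodes it had 38 and 6 UMIs, 160 and 45.1 CPM, and was seen in 18.8% and 5.88% of barcodes. It was thus at least 33.9 and 4.49 times lower in effector barcodes, but stood outside the tested genes because library 2 held under 20 UMIs. After thinning it was seen in 0 of 149 and 0 of 100 effector barcodes, against 19.2% and 0% of granzyme-zero ones. The upper limits of the effector shares were 2.45% and 3.62%, and C1q-high barcodes had it in 0.199% and 0% before thinning. Lef1 and S1pr1, which encode a partner of TCF-1 and a receptor for leaving tissue, had 12 and 3 UMIs in library 1 effector barcodes, against 25 and 13 in the fewer UMIs of granzyme-zero ones. In library 2 they had 4 and 2 against 7 and 4.

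The barcodes on either side of the rule's cut differed more for some genes than for others. The 42 and 27 effector barcodes with exactly 2 rule-gene UMIs had medians of 1936 and 1576 UMIs, and the 50 and 47 just outside, with 1 UMI, of 1408 and 1442. Tnfrsf9 was at 338 and 185 CPM just inside and 265 and 126 CPM just outside, and Il7r at 59.6 and 116 CPM inside and 242 and 116 CPM outside. Tcf7 had 0 UMIs just inside, while it stood at 80.7 and 10.5 CPM just outside. Just outside, 3 UMIs were 34.6 and 31.5 CPM, so the library 2 value of Tcf7 rests on under 3 UMIs. It does not separate the 2 sides there. Ifng was at 318 and 69.3 CPM inside and 0 and 105 CPM outside, and Klf2 at 59.6 and 69.3 CPM inside and 265 and 0 CPM outside. In library 2 the inside values of Ifng and Klf2 also rest on few UMIs.

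Of 8 tested effector transcription factors 1 was higher. Irf8, better known from macrophages and dendritic cells and also induced in activated CD8 T cells, was at 417 and 267 CPM in effector barcodes, against 75.9 and 97.7 CPM in granzyme-zero barcodes. With depths weighted the ratios were 3.55 and 1.85. It was seen after thinning in 29.5% and 26% of effector against 7.07% and 8% of granzyme-zero barcodes, while C1q-high barcodes, which express it, had 20.2% and 20.0%. Id2, which favours effector over memory fate, was at 695 and 592 CPM against 493 and 526 CPM. Tbx21, which encodes T-bet, and Eomes had 14 and 10, and 47 and 13 UMIs in effector barcodes, and too few over both classes in library 2 to be tested. Rel itself was at 164 and 147 CPM in effector against 143 and 195 CPM in granzyme-zero barcodes, ratios of 1.14 (0.769 to 1.74) and 0.753 (0.453 to 1.27), and none of 11 NF-kB genes was called.

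Levels of other granule genes varied by gene. Nkg7, which encodes a granule membrane protein needed for release, was at 2547 and 1661 CPM in effector and 2516 and 1660 CPM in granzyme-zero barcodes, ratios of 1.01 (0.921 to 1.11) and 1.001 (0.852 to 1.18). Srgn, which encodes the proteoglycan that packs granzymes, had ratios of 1.04 and 1.17. Of the 9 tested genes of this list Gzme was higher and none was lower, while 1 was lower in 6 other settings, depth weighting among them, in which 2 were higher. Ctsw, a protease of cytotoxic cells, came near the limit at 159 and 174 CPM against 316 and 353 CPM, ratios of 0.503 and 0.492, as did Lamp1, a lysosome membrane gene, at 0.477 and 0.564. Serpinb9b, a mouse relative of the granzyme B inhibitor Serpinb9, lay outside the lists and was named after its values were seen. It had 27 and 26 UMIs in effector barcodes and 0 in granzyme-zero ones, so it was at least 3.36 and 3.86 times higher.

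Outside the functional and marker lists, the 8 highest ratios belonged to genes with few UMIs in granzyme-zero barcodes. Serpine2, which encodes a secreted serine protease inhibitor, was at 96.1 and 117 CPM in effector barcodes against 0 and 7.51 CPM, and Prkce, a protein kinase C, at 72.5 and 107 CPM against 8.43 and 15 CPM. With depths weighted Prkce was 7.64 and 4.98 times higher, and Serpine2 also passed, counted in library 1 against the 3-UMI limit. Gldc of the glycine cleavage system, Fdps of isoprenoid synthesis, Cdca3, Aars, Timm50 and Cpsf2 were also among the 8 highest. Among the 8 lowest, Emb, which encodes the adhesion protein embigin, was at 74.0 and 96.9 CPM against 645 and 428 CPM. With depths weighted it was at 0.234 and 0.577 times. Ssh2 and Arhgap31, regulators of the actin cytoskeleton, were at 26.8 and 26.7, and 18.9 and 30.1 CPM, against 148 and 135, and 122 and 120 CPM, and both passed with depths weighted. Neurl3, Itpr2, Chd3, Gramd3 and 5031425E22Rik completed the 8 lowest.

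S100a8 and S100a9, abundant in neutrophils, were also called higher, at 67.7 and 287, and 80.3 and 261 CPM in effector barcodes, against 12.6 and 15, and 4.21 and 7.51 CPM. In library 1, 1 barcode held 40 of 43 and 50 of 51 of their UMIs, and in library 2, 42 of 86 and 42 of 78 were in 1 barcode. A further setting left out barcodes with at least 2 UMIs of the monocyte and macrophage, neutrophil, B cell, dendritic, or mast cell and basophil list. The NK, CD4 and regulatory T, gamma delta T and melanoma lists were not used for it. It kept 138 and 87 effector barcodes, where S100a8 and S100a9 had 2 and 7, and 0 and 4 UMIs and were no longer tested. In that setting 39 of 2125 tested genes were higher, beside 78 of 2795 with all barcodes, and 31 of the 39 were among the 78. Most of the rest of the 78 had under 20 UMIs in a library and were no longer tested, Serpine2, Gzmk and Serpinb9b among them. Gzmb, Gzmc, Gzmd, Gzmf, Prf1, Gzme, Ifng, Ccl3, Ccl4, Tnfrsf9 and Irf8 were among the 31.

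A minority of the tested cell cycle genes were higher in effector barcodes, and fewer once depth was weighted. Of 13 tested S phase genes 4 were higher (Mcm4, Mcm5, Mcm6 and Rrm1, helicase and nucleotide genes of DNA replication), of 14 mitosis genes 2 (Ccnb1 and Cenpe) and of 7 histone genes 1 (Hist1h3c), with none lower. Mki67 was at 239 and 187 CPM in effector against 101 and 188 CPM in granzyme-zero barcodes, and Top2a at 458 and 267 CPM against 190 and 263 CPM. The S phase median log2 ratio of 0.98 moved to -0.12 with depths weighted and the mitosis median from 0.72 to 0.34. Ccnb1 (4.63 and 2.11 times) and Hist1h3c (3.001 and 2.57 times) passed in both settings. Mki67 or Top2a was in 49.0% and 46.7% of effector against 16.9% and 23.5% of granzyme-zero barcodes, but after thinning in 27.5% and 29.0% against 15.2% and 34.0%, which turned the order in library 2. The thinned share in C1q-high barcodes was 16.3% and 19.9%.

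Metabolic lists showed the same dependence. No gene of 16 tested for glycolysis and hypoxia was called, although 15 were above 1 in both libraries. Ldha, which makes lactate, was at 1418 and 1327 CPM in effector against 780 and 901 CPM in granzyme-zero barcodes, and Gapdh at 4098 and 4609 CPM against 2398 and 3426 CPM. The list's median log2 ratio of 0.56 was 0.02 with depths weighted, and that of 18 respiratory chain genes was 0.09 in place of 0.38.

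**Figure D4:**
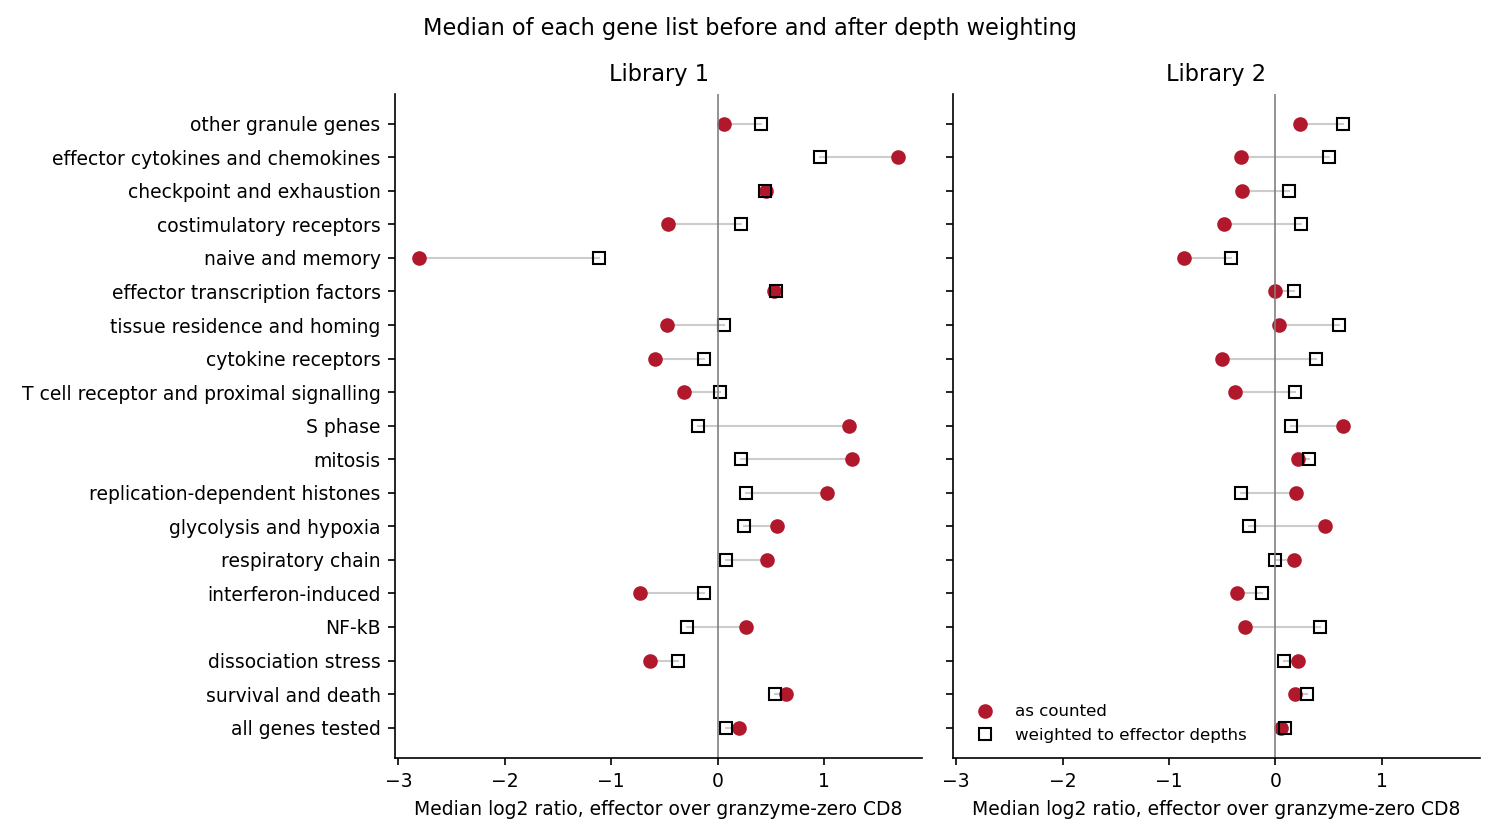
Median log2 ratio of effector over granzyme-zero CD8 barcodes for 18 gene lists and for all genes tested, as counted (filled circles) and with granzyme-zero barcodes weighted to the effector depths (open squares), 1 panel per library. The S phase median moved from 1.24 to -0.19 in library 1, while that of cytokines was 0.96 and 0.51 after weighting and 1.70 and -0.33 as counted.

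Lists for receptors and signalling held few called genes. Of 10 homing genes Itgb7, an integrin chain of mucosal T cells, was lower at 42.5 and 36.8 CPM in effector against 207 and 82.6 CPM in granzyme-zero barcodes. None was called of 4 killer cell receptor, 8 cytokine receptor and 20 T cell receptor genes. Cd8a and Cd8b1 were at 450.5 and 371, and 638 and 655 CPM against 586 and 548, and 898 and 1044 CPM, lower in both libraries as counted but higher over both with depths weighted (log2 0.23 and 0.16). Of 6 interferon-induced genes Ifi27l2a was lower, at 164 and 167 CPM against 565 and 368 CPM, and of 12 dissociation stress genes Btg2 was lower. Neither these genes nor Itgb7 passed with depths weighted. Itgb1, Il18r1, Tgfbr2 and Tnfaip3, named for low ratios over both libraries, were at 0.550, 0.699, 0.590 and 0.521 times in library 1 and 0.313, 0.311, 0.381 and 0.311 times in library 2.

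Effector barcodes with Gzmc, Gzmd or Gzmf differed from those without in few genes, several of them chemokines and granule genes. Of 2035 genes with enough UMIs, 9 (0.442%) were at least 2 times higher in both libraries, 3 of them the defining genes, and 10 (0.491%) lower. Gzmk is among the 10, but barcodes without Gzmc, Gzmd and Gzmf had to enter through other rule genes, so the rule sets part of this. Gzme was at 308 and 1111 CPM with, against 15.6 and 8.39 CPM without, and Serpinb9b at 119 and 139 CPM against 11.1 and 8.39 CPM. Ccl1, which binds CCR8, was at 221 and 200 CPM against 91.2 and 8.39 CPM, and Cdkn1a, which encodes the cycle inhibitor p21, at 113 and 272 CPM against 48.9 and 134 CPM. Among the lower genes Ccl5 was at 2090 and 1806 CPM against 4941 and 5370 CPM, and Xcl1 at 81.0 and 16.7 CPM against 285 and 294 CPM. H2-Aa, H2-Ab1 and H2-Eb1, class II antigen presentation genes, were also lower, H2-Aa at 48.6 and 44.4 CPM against 198 and 260 CPM. The share of free RNA or doublets in these class II levels was not tested. Ifng was at 222 and 328 CPM against 140 and 990 CPM, with opposite directions, and most of its library 2 UMIs came from the few barcodes given above.

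**Figure D5:**
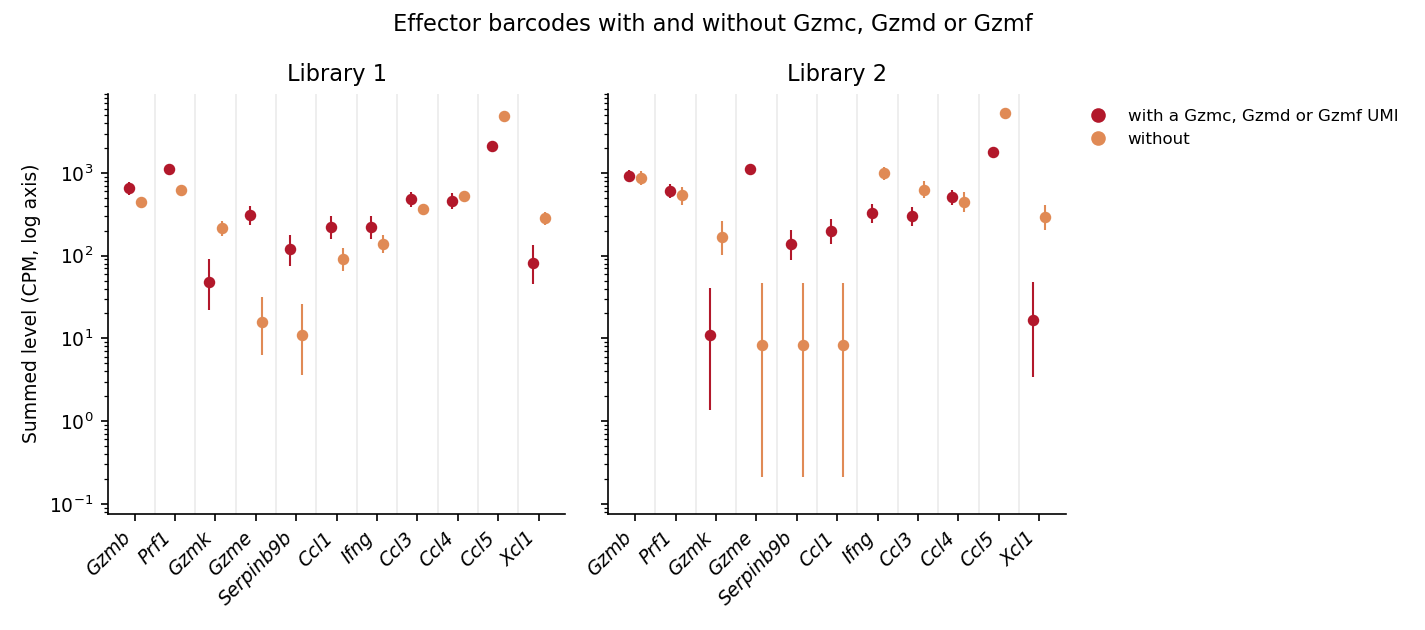
Summed level of 11 genes in effector barcodes with and without a Gzmc, Gzmd or Gzmf UMI, in CPM on a log axis with exact 95% Poisson intervals, 1 panel per library. Gzme, Serpinb9b and Ccl1 were higher and Ccl5 and Xcl1 lower in barcodes with these granzymes in both panels. Gzmb was at 659 and 922 CPM with them and 440 and 873 CPM without. Gzmk was lower as well, which the rule sets in part.

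The split by Gzmk gave the counterpart, on 61 and 18 barcodes with it and 94 and 87 without. Of the same 2035 genes 10 (0.491%), Gzmk included, were higher and 8 (0.393%) lower. Ccl5 was at 6875 and 7174 CPM with Gzmk, against 2758 and 2618 CPM without, ratios of 2.49 (2.31 to 2.70) and 2.74 (2.38 to 3.15). The interferon-induced genes Ifitm3 and Ifi27l2a and Malt1, a signalling protease of the antigen receptor pathway, were higher as well, Malt1 at 168 and 151 CPM against 68.0 and 65.6 CPM. Ifng was lower at 57.6 and 25.1 CPM against 216 and 679 CPM, the last value resting mostly on the few barcodes given above. Gzmc, Gzmd and Gzmf are among the 8 lower genes, but barcodes without Gzmk had to enter through other rule genes, so the rule sets part of this. Gzme, outside the rule, was at 19.2 and 0 CPM against 141 and 775 CPM. The 18 barcodes of library 2 held 39865 UMIs, where 3 UMIs are 75.3 CPM, so values below that rest on at most 3 UMIs.

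Effector barcodes with Mki67 or Top2a, 76 and 49 of them, were the deepest, at medians of 5203 and 2835 UMIs, against 2165 and 1805 in the others. Of the cycle lists 12 of 13 mitosis genes, Mki67 and Top2a that define the split included, 5 of 6 histone and 3 of 9 S phase genes were higher. Of 7 cytokine and chemokine genes 5 were at least 2 times lower and none higher, beside 56 (2.75%, the defining genes included) higher and 11 (0.541%) lower of all 2035. Ccl4 was at 242 and 153 CPM in cycling barcodes, against 1135 and 996 CPM in the others, Ifng at 89.5 and 153 CPM against 341 and 1279 CPM, and Ccl5 at 2120 and 1943 CPM against 8848 and 5238 CPM. Xcl1 and Ccl1 were the other 2 of the 5. Most Ifng UMIs of library 2 came from the few barcodes given above, so its ratio there rests on few barcodes. Among granule genes Gzma was lower, at 29.1 and 153 CPM against 431 and 464 CPM, and no rule gene was called. In library 2, 51 of the 54 Gzma UMIs in the others were in 1 barcode, so the direction there rests on that barcode. The part of depth in these differences was not tested.

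NK-marker barcodes, the other granzyme carriers of the tumour, were 146 and 35, chosen by the same filters with no Cd3, Cd8 or Cd4 UMI and at least 2 UMIs of 5 NK receptor genes. They were shallower, at medians of 882.5 and 713 UMIs, and library 2 held only 34422 UMIs of them. Of 2248 genes tested 139 (6.18%) were at least 2 times higher and 76 (3.38%) lower in effector barcodes in both libraries. Among the rule genes, which chose the effector barcodes, Gzmf and Gzmd were called higher and none lower. Prf1 was at 770 and 578 CPM in effector and 771 and 523 CPM in NK-marker barcodes, ratios of 0.999 (0.823 to 1.22) and 1.11 (0.679 to 1.91). Gzmf was at 496 and 3824 CPM in effector barcodes against 0 and 58.1 CPM, and Gzmd at 99.2 and 1233 CPM against 5.84 and 494 CPM in NK-marker ones. Gzmk had 0 UMIs in NK-marker barcodes, where 3 UMIs are 17.5 and 87.2 CPM, so its 165 CPM in effector barcodes stood above that limit in library 1 and its 73.5 CPM in library 2 did not. Gzma ran the other way, at 148 and 274 CPM in effector barcodes against 6639 and 4009 CPM in NK-marker ones, 44.8 and 14.6 times lower. Gzmc was at 328 and 1755 CPM against 1763 and 2992 CPM, and 239 of the 302 NK-marker UMIs in library 1 were in 1 barcode.

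Of the 8 list genes furthest above NK-marker barcodes Cd3d, Cd3e, Cd3g, Cd8b1 and Gzmf were used to choose the classes, and Trac, Ifng and Tnfrsf4 were not. Ifng was at 164 and 592 CPM in effector against 23.4 and 29.1 CPM in NK-marker barcodes, and Tnfrsf4 had 0 UMIs in NK-marker ones. Pdcd1, named after its values were seen, also had 0 UMIs there. Mitosis genes were higher in 8 of 13 cases, with Mki67 at 239 and 187 CPM against 23.4 and 29.1 CPM. The NK-marker barcodes were shallower and no depth-weighted value was taken here, so the part of depth in this was not tested. Of the 8 furthest below, Klra4 and Klre1 chose the NK-marker class. Fcer1g, an adaptor chain of NK receptors, was at 99.2 and 160 CPM against 2627 and 2005 CPM, and Eomes, a factor of NK and memory T cells, at 74.0 and 43.5 CPM against 286 and 232 CPM. Klrk1, which encodes NKG2D, was at 96.1 and 50.1 CPM against 572 and 407 CPM, and Ifngr1, a chain of the interferon gamma receptor, at 348 and 297 CPM against 1576 and 1133 CPM. Bcl2l11, which encodes the death protein BIM, was at 75.6 and 160 CPM against 391 and 581 CPM.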

How the data were processed

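Per the labels' protocols, CD45+ tumour cells were run on the 10x Genomics Chromium 3′ assay with 10000 reads per cell as the target. The deposited matrix holds counts of UMIs for 31053 genes and 18252 barcodes. The authors made it with Cell Ranger on mm10, per the submitters' processing notes, and the file header gives software version 3.0.2. Aggregation, doublet and filter settings are not given in the sources used here. The barcodes end in 1 or 2, the library number. Library totals were 49129318 and 73507228 UMIs.

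Counts were summed per class and library and given as CPM with exact 95% Poisson intervals, shares with exact Clopper-Pearson intervals, and ratios with exact conditional binomial intervals (Python 3.11.15, SciPy 1.17.1). A gene was tested where the compared classes together held 20 or more UMIs in library 1 and in library 2, and called at a ratio of at least 2, or at most 0.5, in both. A count of 0 was set to 3 UMIs. With 1 library per genotype no p-value is given. NK-marker barcodes had at least 2 UMIs of Ncr1, Klrb1c, Klre1, Klra4 and Klra8, and C1q-high barcodes at least 5 C1q UMIs and no Cd3 UMI. No doublet caller was run, and the cuts on C1q and Cd4 stand in its place. So does an alternative without barcodes holding 2 UMIs of the monocyte and macrophage, neutrophil, B, dendritic, or mast and basophil list. It did not use the NK, CD4 and regulatory T, gamma delta T and melanoma lists. Thinning drew 1000 UMIs per barcode. Depth weighting gave the granzyme-zero barcodes in each of 10 bins cut at quantiles of the effector barcodes' UMI counts the weight of the effector barcodes there, leaving out bins with none. The ratio rule was tested on simulated counts. Promoter windows (RefSeq, GRCm38.p6) and gene positions (GENCODE M21, GRCm38, the same assembly as mm10) were aligned with Biopython. The files and these references share that build.

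The members, the comparison and the 20 gene lists were chosen with earlier results of these data known. Named genes are the rule genes, markers and granzymes, the 15 list genes highest and the 15 lowest by ratio to granzyme-zero barcodes on one side of 1 in both libraries, the 8 highest and 8 lowest other genes, the 8 highest and 8 lowest list genes against NK-marker barcodes, and Rel. Other genes of a list are examples chosen after their values were seen. A few items are not reported here.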

Additional observations from a re-analysis of the deposited data

How the results depend on the processing

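With at least 1000 UMIs per barcode the effector share moved to 52.7% and 54.3%, and with at least 3 or 5 rule-gene UMIs to 31.5% and 30.7%, or 21.2% and 20.5%. Against granzyme-zero barcodes, 78 higher and 39 lower of 2795 genes became 157 and 92 with 10 UMIs per gene and 24 and 14 with 50. These limits change the number of genes tested. After thinning, which also left out barcodes under 1000 UMIs, they became 20 and 2 of 958 genes. Of the 20, 9 were among the 78. Lower genes numbered 15 of 2576 with at least 1000 UMIs per barcode, 11 of them among the 39. With depths weighted they numbered 22 of 2795. Higher genes numbered 39 of 2125 without barcodes holding 2 UMIs of a myeloid, B, or mast and basophil list, 31 of them among the 78. Against NK-marker barcodes, 139 higher and 76 lower of 2248 genes became 62 and 38 with at least 1000 UMIs and 29 and 12 after thinning. They became 56 and 29 with 50 UMIs per gene, and with 10 UMIs per gene 185 were lower. The number of genes tested changes with these settings too, so such counts alone do not show differences lost or gained. After thinning, shares of effector barcodes were 39.6% and 57.0% for Gzmb, 49.0% and 34.0% for Prf1, 21.5% and 10.0% for Gzmk, and 28.0% for Gzmc in library 2. Of 572 values of 52 named genes over these alternatives, 566 stayed on the same side of 1, as ratios over both libraries. Many of these genes were chosen for that side. Part of this was fixed beforehand. Granzyme-zero barcodes lack the 6 rule genes by definition, so the ratios of these genes could not fall below 1. Values without copies of the other library could not change either. In library 2 alone Klf2 turned to 1.57 with depths weighted. Of 583 values, 124 moved by more than the SD between the libraries. The 6 values that changed side were those of Gzma with at least 5 rule-gene UMIs, Rel in 2 settings, and Cd8a, Cd8b1 and Icos with depths weighted. Leaving out copies of the other library removed no effector, granzyme-zero or NK-marker barcode, so no call could change. A mitochondrial limit of 5% gave 70 higher and 39 lower of 2769 genes. The causes were not tested beyond these settings. No paired analysis was possible because each genotype has 1 library.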
